A study of Mus musculus with 8 samples.

Results

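The interferon-induced GTPases were examined in RNA sequencing counts of mouse embryonic fibroblasts, the spindle-shaped stromal cells cultured out of embryos. Genes were taken by symbol: those starting with Gbp and a digit, with Irgm or with Iigp, and Igtp, Ifi47, Mx1 and Mx2. This rule was met by 9 of the 12211 genes counted, 4 guanylate-binding proteins (Gbp2, Gbp3, Gbp7 and Gbp9) and 5 immunity-related GTPases (Irgm1, Irgm2, Igtp, Iigp1 and Ifi47). Mx1, Mx2 and the other genes of these families were not analysed here. All 9 had enough counts to be tested. The tested cells were 4 libraries labelled PUS10KO, lacking the pseudouridine synthase gene Pus10 by their genotype label (PUS10 KO), and the cells they were set against were 4 control libraries with the genotype label WT. In each genotype the libraries were numbered 1 to 4, and all were grown in the same serum-containing medium with no interferon or other treatment named in the labels. Neither the mouse strain, nor how the gene was disrupted, nor whether the cells of a genotype came from 1 line or several is given in the sources used here, so the p-values measure the spread between these libraries, which may be technical.

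Interferon-induced GTPases defend cells from inside. Guanylate-binding proteins are large relatives of dynamin that hydrolyse GTP, assemble on vacuoles or microbes in the cytosol and promote inflammasome signalling. Immunity-related GTPases are smaller and fall into effectors, here Iigp1 and Ifi47, which attack the membrane of vacuoles that hold parasites such as Toxoplasma, and regulators, here Irgm1, Irgm2 and Igtp, which sit on the cell's own membranes and keep effectors inactive there. In fibroblasts these genes are low at rest and are induced strongly by interferon gamma and, to differing degrees, by type I interferon. The signals act on promoters through GAS elements and through interferon-stimulated response elements (ISRE), to which IRF family factors such as IRF1 and IRF9 bind.

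The sequences before the start of these genes are shown first, searched for letters of the elements through which the family is known to be induced. RefSeq windows of GRCm38.p6, from 250 bases before to 50 bases after the start, were present for 7 of the 9 genes (8 windows, 2 of them for Gbp3). The letters searched for, on both strands and with overlapping matches counted, were GAAA, any 2 bases and GAAA again for ISRE, and TTCNNNGAA for GAS. Stretches from 120 bases before the start are printed 5′ to 3′ on the gene's strand, with matched letters in capitals.
Gbp2: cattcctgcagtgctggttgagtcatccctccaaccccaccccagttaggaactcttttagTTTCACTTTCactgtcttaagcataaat
Gbp3: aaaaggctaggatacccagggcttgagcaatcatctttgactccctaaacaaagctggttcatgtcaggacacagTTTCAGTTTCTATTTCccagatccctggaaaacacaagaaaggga
Gbp7: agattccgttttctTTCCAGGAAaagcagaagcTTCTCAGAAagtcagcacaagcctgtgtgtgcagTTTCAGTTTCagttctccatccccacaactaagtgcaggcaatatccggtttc
Irgm1: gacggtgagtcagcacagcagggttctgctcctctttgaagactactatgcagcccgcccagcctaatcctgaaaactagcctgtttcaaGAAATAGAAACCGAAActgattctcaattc
Irgm2: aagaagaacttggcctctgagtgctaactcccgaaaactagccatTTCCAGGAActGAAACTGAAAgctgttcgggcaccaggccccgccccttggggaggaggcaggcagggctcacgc
Igtp: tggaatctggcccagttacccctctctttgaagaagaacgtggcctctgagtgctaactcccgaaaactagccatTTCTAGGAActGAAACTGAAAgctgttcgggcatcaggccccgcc
Ifi47: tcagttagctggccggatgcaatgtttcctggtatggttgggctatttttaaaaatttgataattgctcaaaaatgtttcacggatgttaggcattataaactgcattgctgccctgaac

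These stretches lie at chr3:142620543-142620631 (Gbp2, plus strand), chr3:142559924-142560043 (Gbp3, plus), chr3:142530216-142530335 (Gbp7, plus), chr11:48871421-48871540 (Irgm1, minus), chr11:58214857-58214976 (Irgm2, plus), chr11:58199436-58199555 (Igtp, plus) and chr11:49076467-49076586 (Ifi47, plus). The ISRE letters were found for 6 of the 7 genes, all except Ifi47, and for 3.99% of the 27025 genes in the RefSeq table. The GAS letters were found for 3 of the 7, Gbp7, Irgm2 and Igtp, and for 9.55% of those genes in the RefSeq table. Both were found for the same 3 members and, in 1 window, for 0.540% of the genes in the RefSeq table. Gbp3 and Irgm1 each held 2 overlapping ISRE matches in a row, and Gbp7 had 2 GAS matches. The second Gbp3 window had no match.

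The closely related genes Irgm2 and Igtp have near-duplicate sequence here. Of the 120 bases printed for Igtp, 103 were identical in Irgm2 when it was shifted by 30 bases without gaps. In both the ISRE match was GAAACTGAAA, with the GAS match just upstream, TTCTAGGAA in Igtp and TTCCAGGAA in Irgm2. The positions depend on the start that was annotated. GENCODE starts Gbp2 61 bases and Irgm1 263 bases upstream of RefSeq, so their ISRE matches lie within a GENCODE exon of the gene, that of Gbp2 in a first exon and those of Irgm1 in a transcript not annotated as coding. The print of Gbp2 stops short of the RefSeq start for this reason. For Irgm2 the GENCODE gene starts 15359 bases upstream, near the start of Igtp, so its window is the one whose place depends most on the annotation. A match describes letters in a window and does not show that a factor binds there.

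**Figure D1:**
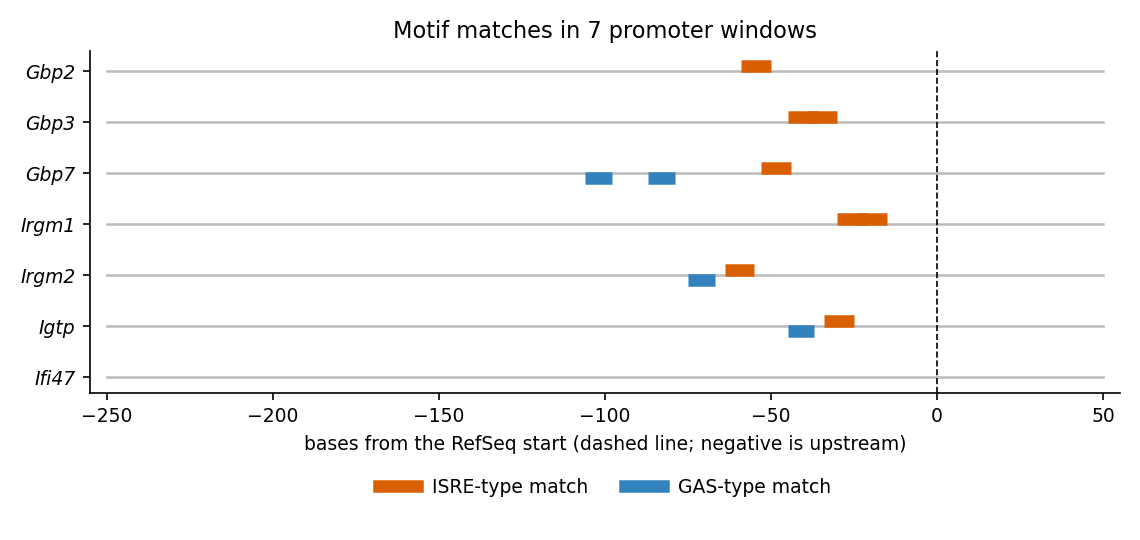
Positions of motif matches in the RefSeq windows of 7 GTPase genes, in bases from the RefSeq start (dashed line). Orange bars are ISRE-type and blue bars GAS-type matches; 6 of the 7 genes hold an ISRE-type match within 64 bases of the start, and Ifi47 holds neither.

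Total counts of the libraries ran from 17561114 to 24563499. Pus10 fell in PUS10KO, with 13.8 ± 1.60 CPM (counts scaled to a common library total after TMM normalization) against 46.1 ± 6.46 CPM in control (SD, n = 4 each; log2 fold change -1.74, adjusted p = 0.000189 by the quasi-likelihood test of edgeR). The genotypes differed in Y-linked transcripts as well: Uty, Kdm5d and Eif2s3y together had 2715 to 4711 counts in PUS10KO libraries and 0 to 3 in control libraries, so that Pus10 genotype and Y-chromosome content cannot be told apart in any comparison here. The second principal component, with 25.0% of the variance, parted numbers 1 and 2 from 3 and 4. Of the fibroblast markers fixed for the check all 8 were present, summing to 9171 to 13189 CPM in PUS10KO and 14504 to 17498 CPM in control; Col1a2, Vim and Pdgfrb fell (edgeR adjusted p = 0.0499, 0.0254 and 0.0461) and the other 5 did not pass. These 3 calls were kept in 2, 2 and 1 of 8 refits that each left out a library, and 7.11% of all tested genes fell. With the block Col3a1 fell too (edgeR adjusted p = 0.0455) and Pdgfra rose (log2 fold change 1.09, adjusted p = 0.00247). Of 10 leukocyte markers 3 had a row (Cd68, Lyz2 and Csf1r) and summed to 2.51 to 6.67 CPM in PUS10KO and 5.0 to 9.05 CPM in control; none of the 3 passed the edgeR test, Lyz2 fell with the block (adjusted p = 0.0108), and the other 7, Ptprc among them, were not analysed here. Of 6 endothelial markers 2 had a row (1.19 to 3.12 CPM in PUS10KO and 2.52 to 4.92 CPM in control; Kdr fell with the block, edgeR adjusted p = 0.026), and of 5 epithelial markers 1, Krt19, which fell (11.5 to 20.7 CPM in PUS10KO and 73.0 to 221 CPM in control; log2 fold change -2.88, edgeR adjusted p = 0.00169). The part of cell composition in the results was not tested. In bulk libraries a change in the number of cells that express a gene cannot be told from a change in RNA per cell.

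Most interferon-induced GTPases rose in PUS10KO fibroblasts. Iigp1, Gbp3, Gbp9, Igtp, Gbp7 and Ifi47 rose, between 2.95-fold (Ifi47) and 12.5-fold (Iigp1), and Irgm2, Gbp2 and Irgm1 did not pass the test. By edgeR's quasi-likelihood test 6 of 9 rose at an adjusted p under 0.05 over 11909 genes, and 5.90% of all tested genes rose. None fell, against 7.11% of all tested genes; all 9 fold changes were above 0, also by DESeq2 and limma voom, so that at an unadjusted p under 0.05 the number that fell was 0 as well. DESeq2 had 7 members that rose, where 9.39% of all tested genes rose and 10.5% fell, and limma voom had 6, where 5.87% rose and 6.84% fell. The median log2 fold change was 2.22 over the 9 members and 0.01 over all tested genes. By class, 3 of 4 guanylate-binding proteins (median 2.55) and 3 of 5 immunity-related GTPases (median 1.61) rose. The 4 PUS10KO values lay above all 4 control values for the same 6 members, where 9.70% of all tested genes did so.

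Fitting the replicate number as a block, which takes differences between numbers out of the error, 8 of 9 rose, all except Irgm1, where 19.1% of all tested genes rose and 19.9% fell. In that edgeR fit the adjusted p was 8.48e-05 for Irgm2, 0.0326 for Gbp2 and 0.0516 for Irgm1. Set against the control library of its own number, every PUS10KO library was higher for 8 of the 9 members (all except Gbp2) and for 28.4% of all tested genes. The median log2 difference over the members was 2.34, 2.12, 2.04 and 2.18 for numbers 1 to 4. Fits on part of the numbers had no block. Fitted alone, libraries numbered 3 and 4 gave 8 members that rose, where 11.1% of all tested genes rose and 12.5% fell. Libraries numbered 1 and 2 alone gave 1, Gbp9, where 2.92% rose and 2.80% fell.

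**Figure D2:**
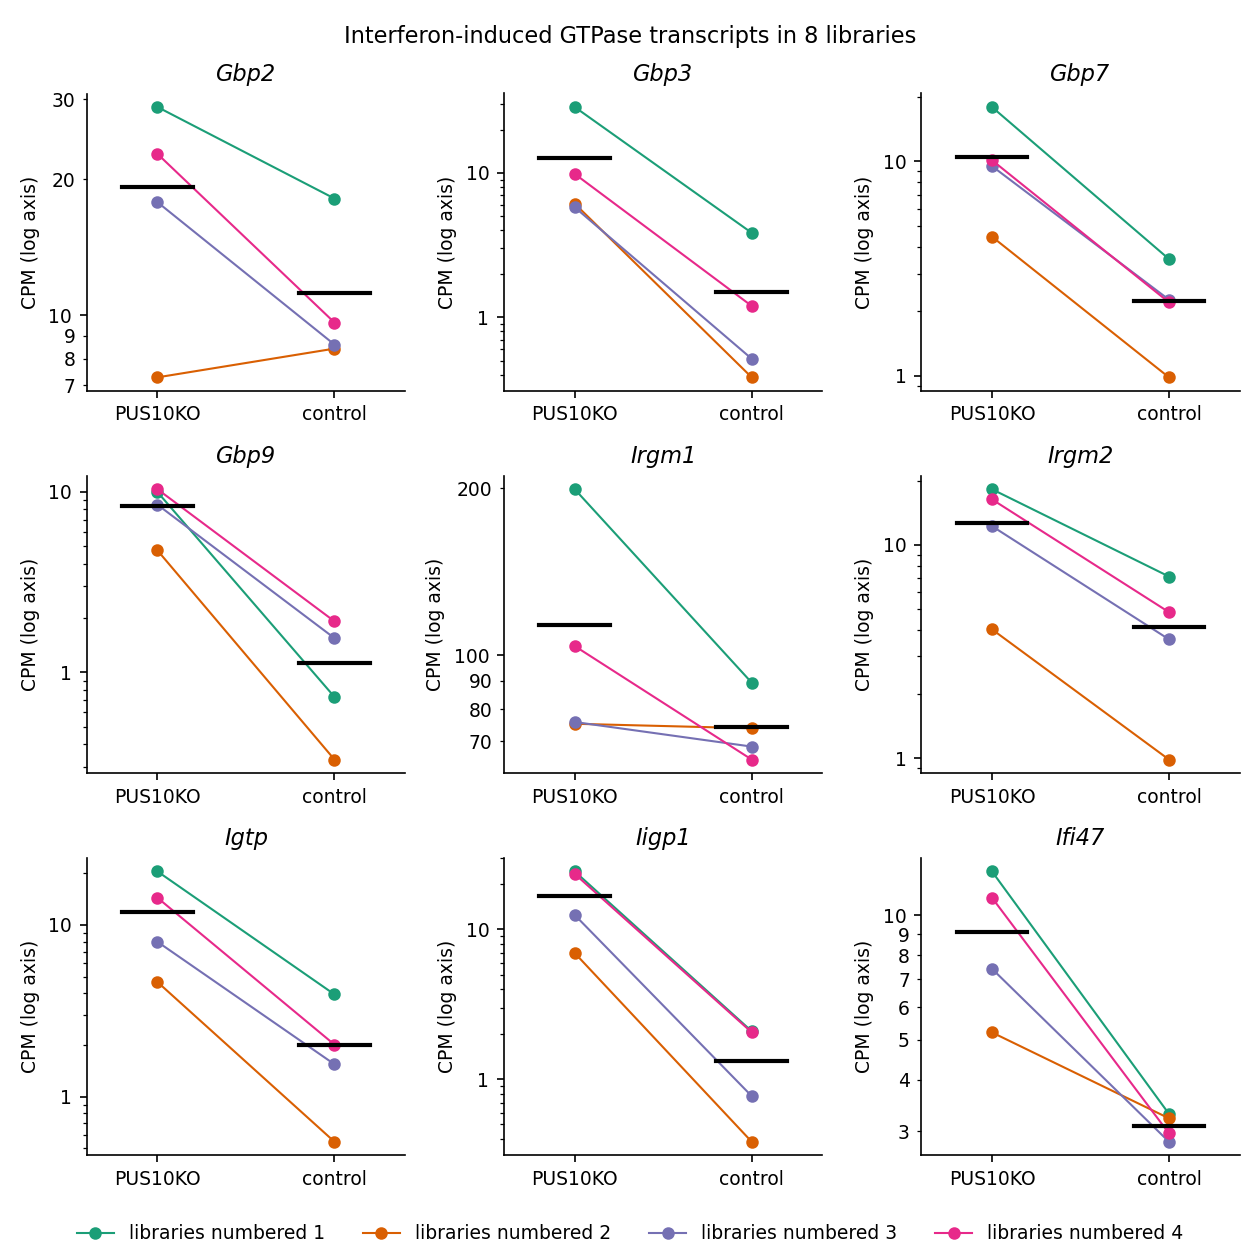
CPM of each GTPase gene on log axes, PUS10KO left and control right; points are libraries, thin lines join libraries of the same number and black bars are means of 4. The ranges part for 6 genes and overlap for Gbp2, Irgm1 and Irgm2. In all 4 same-number pairs the PUS10KO library is higher for 8 of the 9 genes, and for 28.4% of all tested genes.

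**Figure D3:**
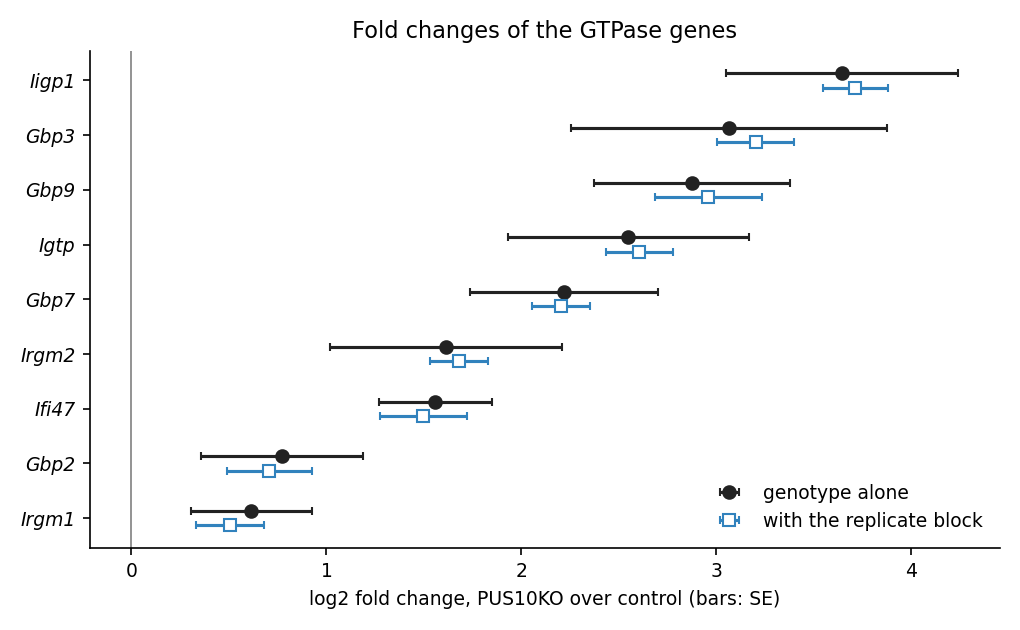
Log2 fold changes, PUS10KO over control, from edgeR with genotype alone (black circles) and with the replicate block (blue squares); bars are standard errors. The values run from 0.61 for Irgm1 to 3.65 for Iigp1, and with the block all 9 stay above 0 with shorter bars.

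Among the guanylate-binding proteins Gbp3 had the largest fold change. Gbp3 (ENSMUSG00000028268.14, chr3:142560026-142573209, plus strand, GRCm38) had 28.6, 6.13, 5.78 and 9.85 CPM in PUS10KO libraries 1 to 4, and 3.84, 0.383, 0.515 and 1.2 CPM in control libraries 1 to 4. In both genotypes library 1 was far above the rest, and the lowest PUS10KO value still exceeded the highest control value. By edgeR Gbp3 rose by a log2 fold change of 3.07 (SE 0.81, adjusted p = 0.038). The control values rest on 79, 7, 10 and 25 counts. Leaving out single libraries kept this call in 2 of 8 refits, without control 1 or without PUS10KO 3, and lost it in 6 (edgeR adjusted p up to 0.0927). In these fits the log2 fold change ran from 2.27 without PUS10KO 1 to 4.14 without control 1.

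Gbp9, the member on chromosome 5, varied least within PUS10KO. Gbp9 (ENSMUSG00000029298.15, chr5:105077630-105139539, minus strand) had 9.97, 4.73, 8.49 and 10.3 CPM in PUS10KO libraries 1 to 4, and 0.730, 0.328, 1.55 and 1.92 CPM in control libraries 1 to 4. Here libraries 4, not 1, were highest in both genotypes, and the groups lay far apart. This gave a log2 fold change of 2.88 (SE 0.50, edgeR adjusted p = 0.00615), a call kept in 8 of 8 leave-one-out refits. The differences between libraries of the same number were 3.69 and 3.67 for numbers 1 and 2 and 2.42 and 2.40 for numbers 3 and 4 on the log2 scale. The gene overlaps Gbp4 and Gbp8 on the same strand, and 8.05% of its 50-base transcript words also occur in transcripts of other genes, so part of its counts could be split with these copies.

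Gbp7, whose product has been tied in mice to delivery of NADPH oxidase to microbes, rose by a smaller amount than Gbp3 and Gbp9. Gbp7 (ENSMUSG00000040253.15, chr3:142530342-142550149, plus strand) had 17.9, 4.46, 9.50 and 10.1 CPM in PUS10KO libraries 1 to 4, and 3.50, 0.985, 2.27 and 2.20 CPM in control libraries 1 to 4. In both genotypes library 1 was highest, library 2 lowest, and 3 and 4 nearly equal. The differences within numbers were the most even of the family (2.04 to 2.34, log2 scale). Gbp7 rose by 2.22 on the log2 scale (SE 0.48, edgeR adjusted p = 0.0167), again kept in 8 of 8 leave-one-out refits. A same-strand pseudogene, Gm43802, shares 11.3% of its exonic bases.

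Gbp2, a prenylated member that coats Toxoplasma vacuoles and cytosolic bacteria, was the guanylate-binding protein that did not pass. Gbp2 (ENSMUSG00000028270.12, chr3:142620602-142638008, plus strand) had 28.9, 7.28, 17.8 and 22.7 CPM in PUS10KO libraries 1 to 4, and 18.1, 8.43, 8.60 and 9.62 CPM in control libraries 1 to 4. PUS10KO 2 lay below all control libraries and control 1 above PUS10KO 3, so the groups overlapped. In number 2 PUS10KO was lower than the control of its number, and no other member had such a pair. The log2 fold change of Gbp2 was 0.77 (SE 0.42, edgeR adjusted p = 0.28, or 0.0326 with the block). With libraries numbered 3 and 4 alone it was 1.14, and with numbers 1 and 2 alone 0.45.

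Gbp2 and Gbp3 lie side by side on chromosome 3 with Gbp2b between them, yet changed by different amounts. The log2 ratio of Gbp2 to Gbp3 was 0.01, 0.25, 1.61 and 1.2 in PUS10KO libraries 1 to 4, and 2.22, 4.30, 3.94 and 2.96 in control libraries 1 to 4. All PUS10KO ratios were thus below all control ratios, and in PUS10KO 1 the genes had nearly equal CPM. The mean ratio was lower by 2.59 on the log2 scale (0.77 ± 0.76 in PUS10KO and 3.35 ± 0.94 in control, SD, n = 4 each; exact permutation test, two-sided, p = 0.0286, the smallest that 70 assignments can give). Without PUS10KO 1 or without PUS10KO 2 the exact p was 0.0571, and the difference -2.33 or -2.41. This test ignores the library numbers. Sign-flips within same-numbered pairs gave an exact p of 0.125, the smallest that 4 pairs allow. Gbp2 had the lowest and Gbp3 the highest fold change of the 4 guanylate-binding proteins. The ratio thus restates the gap between these fold changes in the same libraries and is not separate support. The highest control ratios, in control 2 and 3, rest on 7 and 10 counts of Gbp3. Both genes carry ISRE letters in the sequences above, with 1 match in Gbp2 and 2 overlapping matches in Gbp3. Irgm1 has 2 overlapping matches as well, with the smallest log2 fold change of all members (0.61). Whether the matches bear on the fold changes was not tested.

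Among the immunity-related GTPases the effector Iigp1 rose most. Iigp1, which encodes Irga6, a GTPase that loads onto Toxoplasma vacuoles and ruptures them (ENSMUSG00000054072.12, chr18:60376027-60392634, plus strand), had 24.4, 6.96, 12.5 and 23.5 CPM in PUS10KO libraries 1 to 4, and 2.09, 0.383, 0.773 and 2.06 CPM in control libraries 1 to 4. Libraries 1 and 4 were high and library 2 low in both genotypes, and the lowest PUS10KO value was over the highest control value. Iigp1 had a log2 fold change of 3.65 (SE 0.60, edgeR adjusted p = 0.00458). The call was kept in 8 of 8 leave-one-out refits, with fold changes between 3.34 and 3.94, and the differences within numbers ran from 3.48 to 4.02.

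Ifi47, the effector also called Irgd, rose as well and was nearly level among control libraries. Ifi47 (ENSMUSG00000078920.3, chr11:49076587-49096974, plus strand) had 12.8, 5.21, 7.43 and 11.0 CPM in PUS10KO libraries 1 to 4, and 3.31, 3.23, 2.83 and 2.97 CPM in control libraries 1 to 4. The coefficient of variation was 37.6% among PUS10KO libraries and 7.20% among control libraries, the lowest control value of the 9 members, and the groups did not overlap. Ifi47 rose by 1.56 on the log2 scale (SE 0.29, edgeR adjusted p = 0.0084), a call kept in 8 of 8 leave-one-out refits. Ifi47 is the member whose window held no ISRE or GAS letters. It overlaps Olfr56 on the same strand over 4.49% of its exonic bases.

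Of the regulators Igtp rose and the others did not pass. Igtp, also called Irgm3, is a membrane-bound GTPase needed in mice for resistance to Toxoplasma. Igtp (ENSMUSG00000078853.8, chr11:58199556-58207591, plus strand) had 20.5, 4.65, 7.98 and 14.4 CPM in PUS10KO libraries 1 to 4, and 3.94, 0.547, 1.55 and 2.01 CPM in control libraries 1 to 4. Both genotypes ran in the order 1, 4, 3, 2, and the groups parted between PUS10KO 2 and control 1. Igtp rose by 2.55 on the log2 scale (SE 0.62, edgeR adjusted p = 0.0268). The call was lost without control 3, control 4, PUS10KO 1 or PUS10KO 4 (edgeR adjusted p up to 0.0765).

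Irgm2, a regulator that in mice restrains the caspase-11 response to lipopolysaccharide, had lower fold changes than its neighbour Igtp. Irgm2 (ENSMUSG00000069874.7, chr11:58199618-58222782, plus strand) had 18.2, 4.02, 12.2 and 16.3 CPM in PUS10KO libraries 1 to 4, and 7.11, 0.985, 3.61 and 4.84 CPM in control libraries 1 to 4. The libraries had the same order as for Igtp, but PUS10KO 2 lay below control 1 and control 4. Irgm2 had a log2 fold change of 1.61 (SE 0.59; adjusted p = 0.12 by edgeR, 0.0305 by DESeq2 and 8.48e-05 by edgeR with the block). The annotated genes overlap on the same strand and share 162 exonic bases, and 11.8% of the 50-base words of Igtp occur in Irgm2, so reads from this part could be given to either or to neither.

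Irgm1, a regulator needed in mice for control of mycobacteria and for mitochondrial quality, was the most abundant member and had the smallest fold change. Irgm1 (ENSMUSG00000046879.7, chr11:48861968-48871683, minus strand) had 199, 75.3, 75.8 and 104 CPM in PUS10KO libraries 1 to 4, and 89.3, 73.9, 68.5 and 64.9 CPM in control libraries 1 to 4. PUS10KO 1 stood apart, while PUS10KO 2 and 3 lay within the control range. Its log2 fold change was 0.61 (SE 0.31; edgeR adjusted p = 0.249, or 0.0516 with the block), and 0.20 without PUS10KO 1.

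**Figure D4:**
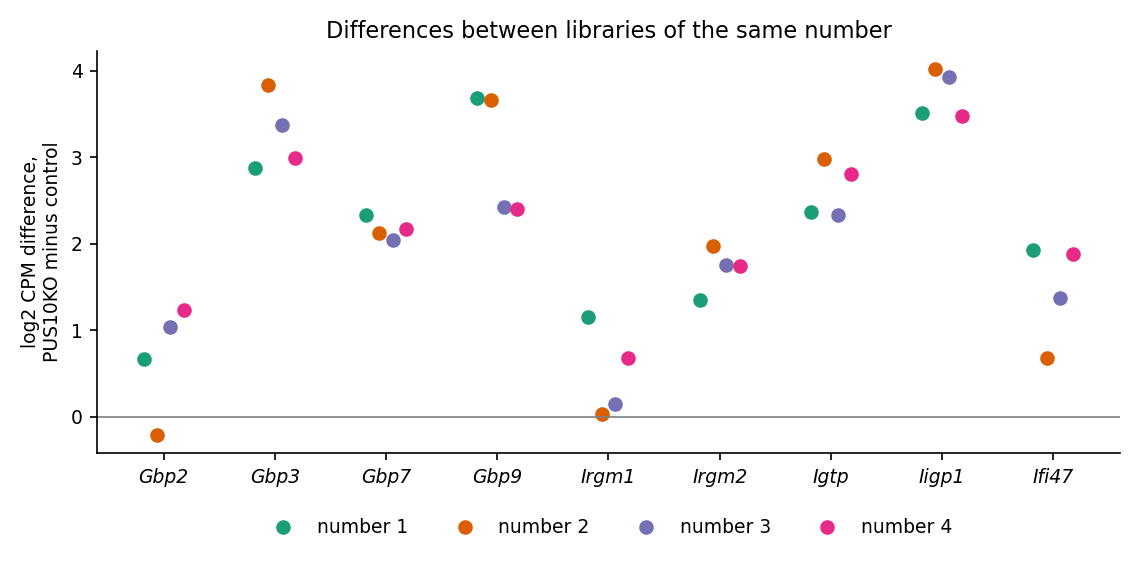
Log2 CPM differences, PUS10KO minus control, between libraries of the same number, for each GTPase gene; colours mark the numbers 1 to 4. Points above 0 mean higher in PUS10KO, and the single point below 0 is Gbp2 in number 2 (-0.21).

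Libraries kept a like order over most members in both genotypes. In PUS10KO library 1 had the highest CPM for 8 of 9 members and library 2 the lowest for 8, and in control library 1 was highest for 8 and library 2 lowest for 7. The highest PUS10KO library exceeded the lowest by 2.18-fold (Gbp9) to 4.95-fold (Gbp3), and the highest control library exceeded the lowest by 1.17-fold (Ifi47) to 10.04-fold (Gbp3). For 3 members, Gbp2, Irgm1 and Irgm2, control 1 exceeded PUS10KO 2. What the numbers share is not given in the labels.

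The GTPases present at rest were mainly Irgm1 and Gbp2, and the make-up was more even in PUS10KO. Levels were compared between genes as CPM per kilobase of exon. Irgm1 was first and Gbp2 second in all 8 libraries, Irgm1 at 19.5 ± 10.1 in PUS10KO and 12.8 ± 1.85 in control, and Gbp2 at 7.62 ± 3.63 in PUS10KO and 4.45 ± 1.84 in control (CPM per kilobase, SD, n = 4 each). In PUS10KO the order went on with Igtp (5.88), Gbp3 (3.86), Ifi47 (3.69), Irgm2 (3.44), Iigp1 (2.89), Gbp7 (1.87) and Gbp9 (1.62). In control it went on with Ifi47 (1.25), Irgm2 (1.12), Igtp (0.995), Gbp3 (0.455), Gbp7 (0.399), Iigp1 (0.228) and Gbp9 (0.218). Below Gbp2 the ranges of all neighbours in either order overlapped; in control the range of Gbp2 lay above that of Ifi47, whereas in PUS10KO the ranges of Gbp2 and Igtp overlapped.

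As shares of the summed level of the 9 genes, Irgm1 made up 39.6 ± 7.43% in PUS10KO and 59.5 ± 7.88% in control. The highest PUS10KO share (49.6%) was below the lowest control share (51.1%). Iigp1 made up 5.69 ± 1.29% in PUS10KO and 1.00 ± 0.615% in control, and Gbp3 6.98 ± 2.52% in PUS10KO and 1.80 ± 1.5% in control (SD, n = 4 each). Shares within a sum are tied to each other, so a lower share of Irgm1 is not a lower level of it.

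**Figure D5:**
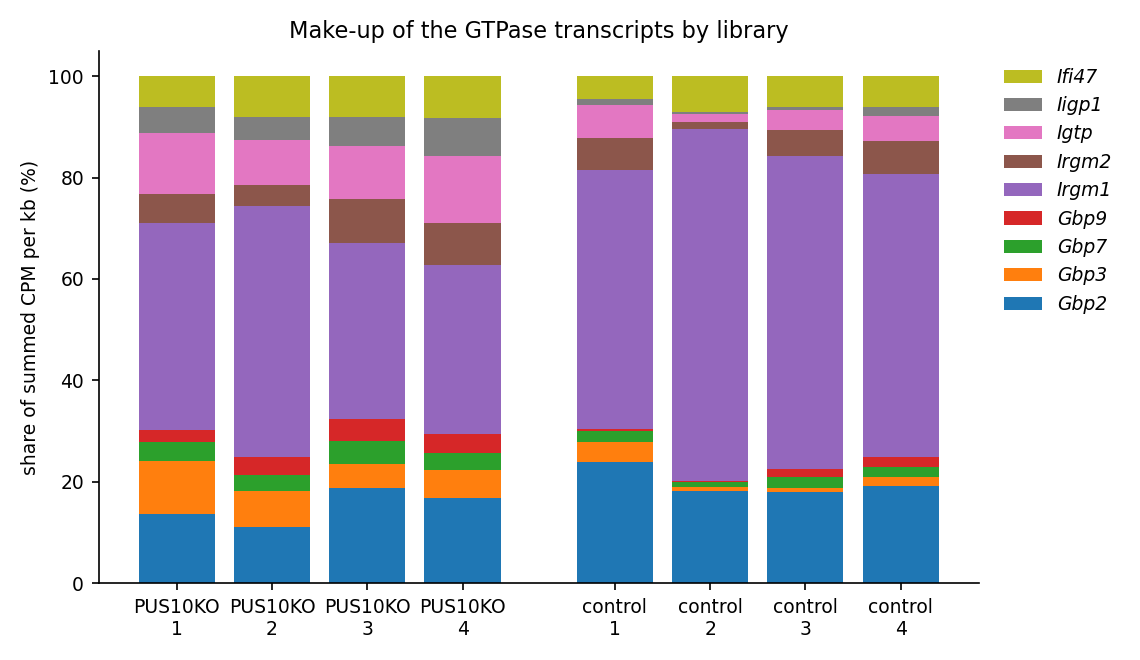
Share of each GTPase gene in the summed CPM per kilobase of the 9 genes, by library, PUS10KO left and control right; stacked bars start at 0 and reach 100%. Irgm1 (purple) takes 33.3 to 49.6% in PUS10KO and 51.1 to 69.4% in control.

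The genes most like Gbp2 and Gbp3 across the 8 libraries were different ones. Likeness was Pearson's r of log2 CPM among 10782 genes; the libraries share genotype and number, so r describes these libraries and is given without a test. Nearest to Gbp3 were Xaf1 (r = 0.993), Lgals3bp (0.993), Phf11d (0.991), Ifi44 (0.989) and Oas1a (0.983), and all 5 rose, with log2 fold changes from 2.06 (Lgals3bp) to 4.95 (Oas1a; edgeR adjusted p = 0.0251). Counts of Oas1a are uncertain, since Oas1 genes have close paralogs. Nearest to Gbp2 were the complement protease gene C1ra (r = 0.973), Tmem147 (0.973), the complement protease gene C1s1 (0.969), Loxl4 (0.947), a lysyl oxidase-like gene, and Kctd12 (0.942), of which none passed the edgeR test. With the block C1ra, C1s1 and Kctd12 passed. The calls near both genes follow in part from the choice, since r takes in the genotype difference, and are not a separate result. Over all tested genes 5.90% rose, and 19.1% with the block. Gbp2 and Gbp3 themselves had r = 0.769.

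The route from interferon receptors to these promoters was described by a list of 18 genes. The edgeR test called 2 of the 17 with enough counts, both higher in PUS10KO, and 15 did not pass; the block called 12, also higher. Over all tested genes 5.90% rose, and 19.1% with the block. The median of the 17 log2 fold changes was 0.46. Those that rose are feedback inhibitors of cytokine signalling, Socs1 (9.75 ± 1.04 CPM in PUS10KO and 3.99 ± 1.16 CPM in control; log2 fold change 1.29, edgeR adjusted p = 0.00846) and Socs3 (85.7 ± 26.8 CPM in PUS10KO and 32.5 ± 9.30 CPM in control; 1.4, adjusted p = 0.00898). The tested IRF genes, Stat2 and the receptor genes are named here for their roles, after their values were seen. Among the IRF genes Irf7 had a log2 fold change of 2.09 (edgeR adjusted p = 0.188, or 3.80e-05 with the block), Irf9 had 1.14 (0.0855, or 7.11e-05), Irf1 had 0.94 (0.0793, or 0.000232) and Irf2 had 0.26 (0.521, or 0.267). Stat2 had 0.66 (edgeR adjusted p = 0.313, or 0.00424 with the block). Of the receptor genes Ifnar2 had 0.31 and passed with the block alone (edgeR adjusted p = 0.0173), whereas Ifnar1 (0.12), Ifngr1 (-0.09) and Ifngr2 (-0.20) did not pass with or without it. Interferon genes were not analysed here.

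Of 20 tested factors that place, lipidate or restrain the GTPases 1 rose, 1 fell and 18 did not pass; their median log2 fold change was -0.24. The block fit had 3 higher and 8 lower, named here after their values were seen. Higher were Map1lc3a, Trim21 and Pias1. Lower were Fntb, the autophagy genes Atg5, Atg7, Atg12, Atg16l1, Map1lc3b and Gabarap, and Sqstm1. Their edgeR adjusted p with the block was 0.00255 for Fntb and 0.0124 (Map1lc3b) to 0.0321 (Gabarap) for the others. Both counts without the block are near the shares over all tested genes, 5.90% that rose and 7.11% that fell; with the block those shares were 19.1% and 19.9%. Map1lc3a, an LC3 protein of the autophagy conjugation system that guides GTPases to vacuoles, had 88.1 ± 16.7 CPM in PUS10KO and 55.5 ± 10.6 CPM in control (log2 fold change 0.67, edgeR adjusted p = 0.0457), a call kept in 2 of 8 leave-one-out refits, those without control 1 or PUS10KO 2. It was also the non-member most like Igtp (r = 0.996 over 8 libraries, looked up after its values were seen). Fntb, the beta subunit of protein farnesyltransferase, fell (10.3 ± 1.23 CPM in PUS10KO and 16.7 ± 1.4 CPM in control, log2 fold change -0.70, edgeR adjusted p = 0.0135). Whether this enzyme modifies any of the members counted here was not tested.

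A further list held genes of the cytosolic lipopolysaccharide response and inflammasomes, and also of necroptosis and of RNA and DNA sensing. Of its 9 tested genes 4 rose and 5 did not pass, with a median log2 fold change of 0.50. The block fit had 5 higher and 1 lower. Over all tested genes 5.90% rose, and with the block 19.1% rose and 19.9% fell. Gsdmd, the pore-forming protein cleaved by inflammatory caspases, had 49.5 ± 7.48 CPM in PUS10KO and 8.56 ± 1.46 CPM in control (log2 fold change 2.53, SE 0.18, edgeR adjusted p = 7.79e-05), kept in 8 of 8 leave-one-out refits. Zbp1, which senses left-handed RNA and DNA, had 3.49 (adjusted p = 0.0231), the necroptosis kinase gene Ripk3 0.50 (0.0215) and the adaptor gene Sting1 1.07 (0.0175), calls kept in 6, 4 and 7 of those 8 refits. Zbp1 was lost without control 3 or PUS10KO 1, Sting1 without PUS10KO 3, and Ripk3 without control 3 or without PUS10KO 1, 2 or 3. The 5 that did not pass are named after their values were seen. Casp4, which encodes caspase-11, had 10.2 ± 3.8 CPM in PUS10KO and 2.61 ± 2.18 CPM in control (1.95, edgeR adjusted p = 0.0546, or 0.000359 with the block). Mlkl was the gene lower with the block (-0.43, edgeR adjusted p = 0.16, or 0.00832 with the block). Cgas (0.11), Casp8 (-0.09) and Il18 (-0.52) did not pass with or without it.

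Dynamin-superfamily GTPases outside the interferon-induced families were counted beside them. Of 15 tested 1 rose, 1 fell and 13 did not pass; their median log2 fold change was -0.16. The block fit had 3 higher and 3 lower. These counts too are near the shares over all tested genes (5.90% rose and 7.11% fell, or 19.1% and 19.9% with the block). Dnm2, the dynamin of endocytosis, fell (105 ± 1.91 CPM in PUS10KO and 150 ± 5.12 CPM in control; -0.51, edgeR adjusted p = 0.00731). Mfn1, which fuses mitochondrial outer membranes, rose (0.43, adjusted p = 0.0303), a call kept in 1 of 8 leave-one-out refits, that without control 1. The difference between this list and the interferon-induced GTPases was not tested.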

How the data were processed

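RNA sequencing counts of 8 libraries of mouse embryonic fibroblasts, 4 PUS10KO and 4 control, were grouped by title. Per the labels' protocols, stranded total RNA libraries were sequenced paired-end. The authors deposited raw whole-number counts per gene. STAR 2.7.8a, DESeq2 and mm10 appear in the submitters' processing notes. For the counter, its strand setting and the gene filter no statement is given in the sources used here. The authors also deposited normalized values, by their range (5.13 to 18.12) on a log2 scale, in which, within each of the 12211 genes, the sum of the PUS10KO and the control value is the same for every number (tolerance 1e-06). Differences between numbers had thus already been removed from these values.

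Counts were filtered with filterByExpr, scaled by TMM and tested with edgeR 4.0.16 (quasi-likelihood, robust; R 4.3.3), genotype as the only term, with Benjamini-Hochberg adjustment over 11909 genes and a threshold of 0.05. The SE is the log2 fold change over the root of F. Alternatives used DESeq2 1.42.0, limma 3.58.1, RLE scaling, no filter, the replicate block, the deposited log2 values and fits without 1 library. The test was tested on simulated data. Log2 CPM used a prior count of 1. Named were all members, the 5 genes most like Gbp2 and Gbp3, and up to 6 called genes a list (or 2 by level). Members and lists were chosen with earlier results of these data known.

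The labels do not say what the numbers 1 to 4 share. After subtraction of genotype means, same-numbered libraries deviated together (r = 0.672, 0.708, 0.621 and 0.678 over 11909 genes, not independent of each other). The highest r with a library of another number was 0.299, 0.043, 0.573 and 0.494, so numbers 3 and 4 were set apart from each other less clearly. The numbers were taken to pair libraries on the evidence of the counts, not of the labels. The deposited log2 values, from which differences between numbers had been removed, also treat the numbers as shared by the genotypes. The main fits have no pairing, and the paired fits are alternatives. Every pair of libraries within a genotype differed by more than sampling noise (chi-square over its degrees of freedom at least 17.9). GENCODE M21 on GRCm38, the build also named mm10, gave the gene models of all 9 members by symbol; promoter windows came from RefSeq (GRCm38.p6).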

Additional observations from a re-analysis of the deposited data

Results flagged for a closer look

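Gbp2 in control 1 (18.1 CPM) stood apart from the other control libraries (8.43, 8.60 and 9.62 CPM): its gap to the nearest was 0.876 of the range of the 4. It was the only flag among 22 groups of 4 libraries, where chance flags about 1 in 20. Without control 1 the log2 fold change of Gbp2 was 1.11 (edgeR adjusted p = 0.139), against 0.77 with all libraries and 0.51 without PUS10KO 1 (edgeR adjusted p = 0.507), and the other members' highest control libraries gave no flag.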

How the results depend on the processing

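With RLE scaling, no filter or limma voom 6 members rose, with DESeq2 7, and with the replicate block, on counts or on the deposited log2 values, 8. Leaving out 1 library, without the block, gave 4 to 6. Libraries numbered 1 and 2 alone gave 1 and numbers 3 and 4 alone 8, settings chosen after seeing the data. Both fits had 2 libraries a genotype, fewer than the main fit, and no block. With numbers 1 and 2 alone, the 6 members that rose in the main fit had log2 fold changes from 1.46 (Ifi47) to 3.77 (Gbp9). With all libraries these 6 ran from 1.56 (Ifi47) to 3.65 (Iigp1). No member fell, and no fold change of a member turned below 0, under any of these. The Gbp2 to Gbp3 difference was -2.59 by sign-flips of same-number pairs (replicate block) and -1.05 on the deposited log2 values (exact p = 0.125 in both, the smallest that 4 pairs allow), and -2.96 to -2.27 with 1 library left out (p up to 0.0571, without PUS10KO 1 or PUS10KO 2). Prior counts of 0.5 and 2 gave -2.63 and -2.51. The fold change of Pus10 ran from -1.84 to -1.44 and stayed past the threshold. On the deposited log2 values members' differences were smaller (1.58 for Gbp3, 1.98 for Iigp1); their scale is not stated. Low control counts, down to 6 to 18 for 6 members in control 2, limit the precision of the fold changes.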
